A study of Homo sapiens with 6 samples.

Results

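The genes described here are 29 established transcriptional targets of the tumour suppressor p53, listed by name, with earlier results of these data known, out of 60676 genes listed in the deposited tables. RNA was sequenced in cultures of the human neuroblastoma line SK-N-BE, which takes on neuronal traits in retinoic acid. Cells received either a scrambled small interfering RNA (si-SCR) or a pool of small interfering RNAs that targets the transcript of CyCoNP, which is a long noncoding RNA (si-CyCoNP), and both groups were then kept for 1.5 days in differentiation medium with 10 μM retinoic acid. There were 3 libraries in each group. The knockdown was transient and was made in a single cell line, and the RNA came from whole cultures, so that fewer cells of a type and less RNA per cell cannot be told apart. The labels do not say whether the replicates came from separate cultures, so that p-values measure only the spread between these libraries.

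The p53 protein is a transcription factor that is kept low by the ubiquitin ligase MDM2 and accumulates after DNA damage, ribosomal stress or oncogene activity. It binds DNA as a tetramer at response elements made of a pair of decamers, and its target genes arrest the cell cycle, repair DNA, adjust metabolism or start apoptosis. Several of these targets, MDM2 and PPM1D among them, feed back on p53 itself. In neuroblastoma the pathway is best known for the balance between p53 and MDM2, in which the oncogene MYCN takes part.

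As a sequence feature that the choice of the 29 genes did not read from these files, the region of 2500 bases on each side of the start of the canonical transcript was searched for the p53 response element (GRCh38, GENCODE release 44 transcripts, orientation of the gene; the element is read in the same way on both strands). A decamer was written as 3 purines, C, 2 bases that are A or T, G and 3 pyrimidines, with its C and G required. A pair of adjacent decamers with at most 2 mismatches was found in 17 of the 29 genes (58.6%), against 504 of 13905 tested genes with such a region (3.62%). With at most 1 mismatch the shares were 7 of 29 (24.1%) and 76 of 13905 (0.547%), and without a mismatch 2 of 29 (6.90%) and 9 of 13905 (0.0647%). With up to 13 bases between the decamers and at most 1 mismatch they were 8 of 29 (27.6%) and 977 of 13905 (7.03%). Many p53 targets were first recognised through such elements, and a match of letters is a description that shows neither binding nor regulation. The sites shown are those of 5 genes that changed upon CyCoNP depletion (ZMAT3, PLK2, DDB2, CCNG1 and AEN) and of the textbook targets CDKN1A and MDM2, which did not pass the test. Each is written 5′ to 3′ on the strand of its gene, with the core of 4 bases of each decamer in capitals.
ZMAT3 (chr3:179070188-179070207, minus strand, intron 1, no mismatch): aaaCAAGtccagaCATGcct
PLK2 (chr5:58462274-58462293, minus strand, upstream of the start, no mismatch): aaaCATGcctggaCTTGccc
DDB2 (chr11:47214979-47214999, plus strand, untranslated part of exon 1, 1 base between the decamers, no mismatch): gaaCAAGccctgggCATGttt
CCNG1 (chr5:163437926-163437945, plus strand, intron 1, 1 mismatch): gcaCAAGcccaggCTAGtcc
AEN (chr15:88621306-88621325, plus strand, upstream of the start, 2 mismatches): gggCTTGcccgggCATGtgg
CDKN1A (chr6:36676449-36676468, plus strand, upstream of the start, 2 mismatches): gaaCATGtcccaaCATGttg
MDM2 (chr12:68808923-68808942, plus strand, intron 1, 2 mismatches): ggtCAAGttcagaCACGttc
The adjacent pairs without a mismatch belonged to genes that moved in opposite directions, since ZMAT3 was lower and PLK2 higher in si-CyCoNP. With bases between the decamers, a site without a mismatch was also held by DDB2, which was lower, and by TIGAR, which did not pass the test. The sites of PLK2 and CDKN1A lay 2207 and 2265 bases upstream of the start, that of ZMAT3 began 1602 bases downstream and that of AEN 34 bases upstream of it. An adjacent pair with at most 2 mismatches was found in 6 of the 9 genes that passed the test and in 8 of the 16 that did not. PLK3, TP53INP1 and TP53I3 passed the test without such a pair in this window. With at most 1 mismatch it was 4 of 9 against 2 of 16, and without a mismatch 2 of 9 against 0 of 16. With up to 13 bases between the decamers and at most 1 mismatch it was 4 of 9 against 3 of 16. These groups are small, and their difference was not tested.

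The libraries held between 3762009 and 4799407 counted fragments, and the difference between the groups was within their replicate spread (two-sided exact permutation test, p = 0.9, where 0.1 is the smallest p that 3 libraries against 3 can give). LINC02381, the gene of CyCoNP, had 14.4 ± 1.31 FPKM in si-SCR versus 1.10 ± 0.498 FPKM in si-CyCoNP (SD, n = 3; FPKM are fragments scaled to gene length and library total), with a log2 fold change (log2FC, si-CyCoNP over si-SCR) of -3.78 (edgeR, adjusted p = 6.84e-14). On the first principal component, with 51.4% of the variance, the groups were apart and si-SCR replicate 3 lay nearest to si-CyCoNP. All 11 sympathetic neuroblastoma markers were expressed. Of these, 8 were lower in si-CyCoNP (72.7%, against 14.2% of all genes tested), with log2FCs of -1.24 and -1.01 for the granule protein genes CHGA and CHGB. MYCN alone was higher (9.09%, against 14.2%) with 0.84, from 428 ± 19.0 FPKM in si-SCR to 806 ± 57.7 FPKM in si-CyCoNP (SD, n = 3). The summed FPKM of the list lay between 2046 and 2325 in si-SCR and between 1879 and 2020 in si-CyCoNP. This sum takes in the rise of MYCN together with the falls. Of 12 mesenchymal markers 7 were tested, 2 of them higher (FN1 with 2.88, COL1A1 with 1.68) and 2 lower (SNAI2 with -1.27, VIM with -0.43). Each direction held 28.6%, against 14.2% of all genes tested. FN1 and COL1A1 reached a mean of 1 FPKM through si-CyCoNP only, with 0.697 and 0.450 FPKM in si-SCR. The summed FPKM of the list went from 115 to 139.6 in si-SCR and from 119.7 to 122 in si-CyCoNP, and PRRX1 and COL1A2 were at 0. Of 10 markers of other cell types, 9 lay below the filter, among them PTPRC and GFAP with at most 2 counts in a library and CD3E, ALB and PECAM1 at 0. These 9 genes summed to 1.13 to 2.10 FPKM in si-SCR versus 1.18 to 1.89 FPKM in si-CyCoNP. The part of these markers in the differences of the p53 targets was not tested.

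The question of how p53 targets responded to the loss of CyCoNP was addressed in the 25 of the 29 genes that reached a mean of 1 FPKM in either group. ZMAT3, DDB2, TP53INP1, TP53I3, PLK3, TNFRSF10B and CCNG1 were lower in si-CyCoNP, PLK2 and AEN were higher, and CDKN1A, MDM2, BAX and 13 more did not pass the test. Thus 9 of 25 passed an adjusted p of 0.05 (36.0%; edgeR quasi-likelihood test, Benjamini-Hochberg adjustment over 13966 genes), against 28.4% of all genes tested. Of the targets, 7 were lower (28.0%), against 14.2% of all genes, and 2 were higher (8%), against 14.2% of all genes. With library totals in place of TMM scaling 2465 of all genes were higher and 1574 lower, in place of 1982 and 1990, while the targets again gave 2 and 7. ZMAT3, DDB2 and TP53INP1 also fell beyond a log2FC of -1, which is 12.0% of the targets tested against 2.98% of all genes. No target exceeded a log2FC of 1 upwards, the highest being PLK2 with 0.86, against 2.28% of all genes. The FPKM values of the groups did not overlap in 10 of the 25 targets (40.0%), against 40.3% of all genes. The median log2FC of the 25 genes was -0.18, with a range from -1.43 to 0.86, against a median of 0.005 over all genes tested. DDB2 and BBC3 reached the filter through si-SCR only. Among the 23 genes over it in both groups, 6 were lower (26.1%), 2 were higher (8.7%) and the median was -0.14. Of these 23 genes, which leave out DDB2, 2 fell beyond a log2FC of -1 (8.7%), against 2.98% of all genes. Without the filter 28 of the 29 genes had a count, again 7 were lower and 2 higher, and the median was -0.12.

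**Figure D1:**
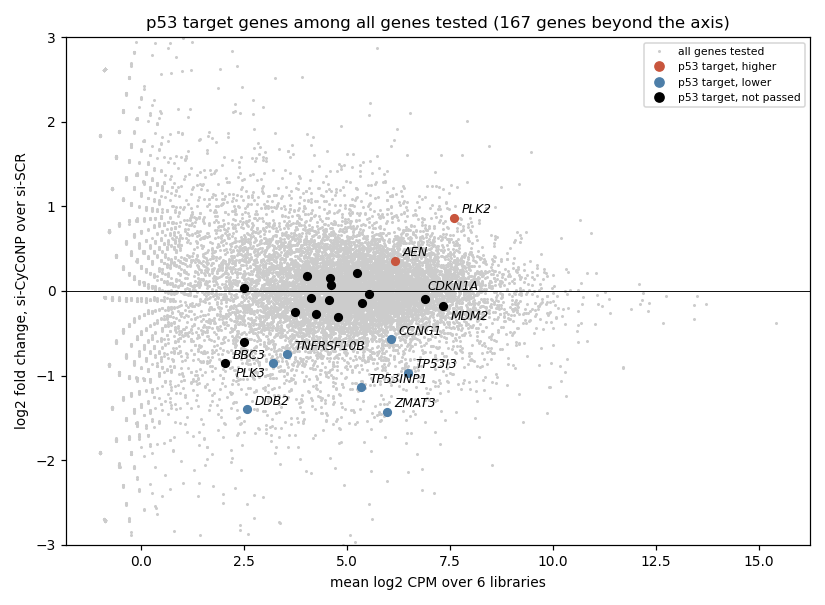
Log2 fold change of si-CyCoNP over si-SCR (y axis) against mean log2 CPM, counts scaled by library total and TMM factor, over the 6 libraries (x axis). Grey points are the tested genes with a symbol, of which 167 lie beyond the axis. Larger points are the 25 p53 targets tested, red where higher and blue where lower at an adjusted p under 0.05, and black where they did not pass. ZMAT3 (-1.43) and DDB2 (-1.40) lie lowest and PLK2 (0.86) highest among the targets, with CDKN1A (-0.09) and MDM2 (-0.18) close to 0.

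The levels of the targets spanned more than the differences between groups. On the FPKM scale, which takes gene length into account, TP53I3 had the highest mean in si-SCR (49.8 ± 5.72, n = 3), followed by CDKN1A (38.8 ± 9.95) and PLK2 (28.5 ± 5.27), and the si-SCR libraries of CDKN1A overlapped those of both neighbours in this order. In si-CyCoNP the order was PLK2 (54.3 ± 15.2 FPKM), CDKN1A (38.0 ± 7.13 FPKM) and TP53I3 (26.6 ± 4.88 FPKM), and again the libraries of neighbours overlapped. Summed over the 29 genes, the level was 267 to 303 FPKM in si-SCR versus 247 to 299 FPKM in si-CyCoNP, so that the ranges overlapped. The 7 genes that were lower summed to 93.2 to 108 FPKM in si-SCR versus 49.2 to 60.3 FPKM in si-CyCoNP, a sum that describes genes already known to be lower. Of the 9 genes that passed, si-SCR replicate 3 was the control library nearest to the si-CyCoNP mean in 5, replicate 1 in 3 and replicate 2 in 1.

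**Figure D2:**
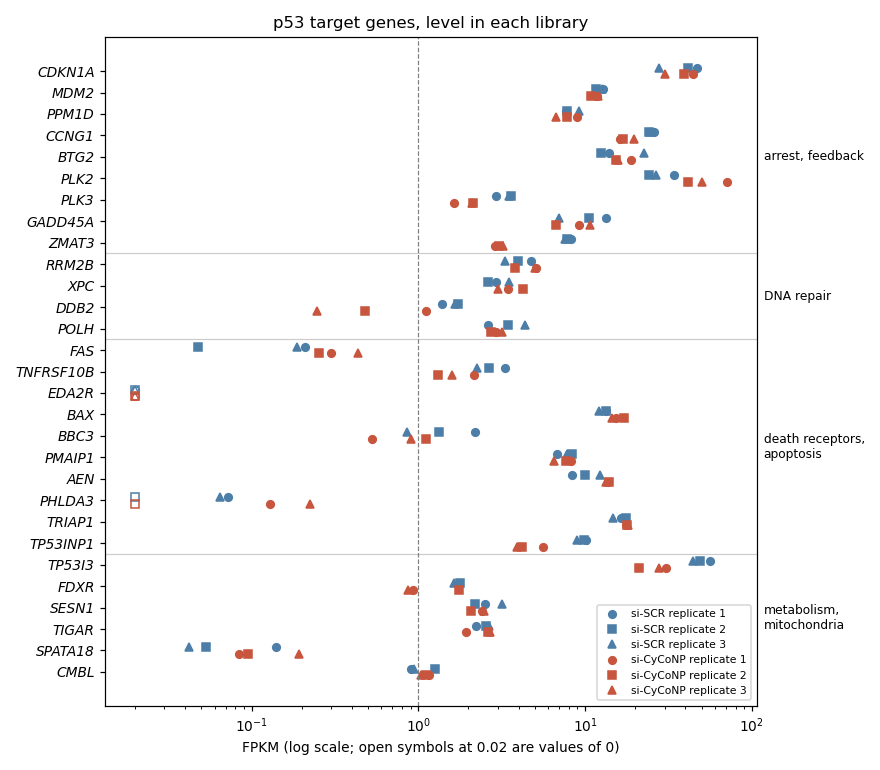
FPKM of each of the 29 p53 targets in each library (x axis, log scale; y axis, genes by role), with si-SCR in blue and si-CyCoNP in red, a symbol for each replicate and open symbols at 0.02 for values of 0. The dashed line marks 1 FPKM, which FAS, EDA2R, PHLDA3 and SPATA18 did not reach, and the groups of ZMAT3, TP53INP1 and TP53I3 lie clearly apart.

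Genes of cell cycle arrest and feedback were examined first, of which 3 of 9 were lower (33.3%) and 1 was higher (11.1%). Of all genes tested, 14.2% passed in each direction, and the roles hold too few genes to set their shares apart from this. CDKN1A, which encodes the cyclin-dependent kinase inhibitor p21, had 47.1, 41.5 and 27.8 FPKM in si-SCR versus 44.5, 39.3 and 30.4 FPKM in si-CyCoNP. The si-CyCoNP range lay within that of si-SCR, and in each group replicate 1 was the highest and replicate 3 the lowest. Its log2FC was -0.09 with a 95% confidence interval from -0.38 to 0.20 (edgeR, adjusted p = 0.678), which turned to 0.09 without si-SCR replicate 1 and became -0.31 without si-SCR replicate 3, where it passed (edgeR, adjusted p = 0.00727, the lowest of 15 alternatives that reached up to 0.978). MDM2, the ligase that marks p53 for degradation, had 12.9, 11.7 and 12.7 FPKM in si-SCR versus 11.8, 10.9 and 11.9 FPKM in si-CyCoNP. Again the groups overlapped, with a log2FC of -0.18 ± 0.086 (SE; edgeR, adjusted p = 0.133). Of the exonic bases of MDM2, 5.29% belong also to a second gene of the same strand, so that its count is slightly less certain. PPM1D, the phosphatase Wip1 that switches p53 signalling off, ranged from 6.70 to 9.24 FPKM with a log2FC of -0.14 (edgeR, adjusted p = 0.452).

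ZMAT3 showed the largest difference among the targets, and the one with the smallest adjusted p. It encodes a zinc finger RNA-binding protein and lies on the minus strand of chromosome 3 from 178960121 to 179072215. Its level was 8.20, 7.81 and 7.55 FPKM in si-SCR versus 2.90, 3.06 and 3.202 FPKM in si-CyCoNP, or 7.85 ± 0.328 and 3.05 ± 0.154 FPKM (SD, n = 3). Every si-CyCoNP library lay far below every si-SCR library, with 332 to 408 counts in si-SCR and 147 to 157 in si-CyCoNP. The log2FC was -1.43 ± 0.109 (SE; edgeR, adjusted p = 1.24e-10), so that 37.1% of the level remained. CCNG1, on chromosome 5 from 163437569 to 163446151, encodes cyclin G1, which recruits a phosphatase to MDM2. It had 26.1, 24.1 and 24.6 FPKM in si-SCR versus 16.3, 16.9 and 19.7 FPKM in si-CyCoNP. The groups did not overlap and si-CyCoNP replicate 3 came nearest to the controls. The log2FC of CCNG1 was -0.57 ± 0.108 (SE; edgeR, adjusted p = 1.82e-04).

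The polo-like kinases PLK2 and PLK3 moved in opposite directions. Both are stress-responsive kinases, and PLK2 is also known from neurons, where it acts at synapses. PLK2, on the minus strand of chromosome 5 from 58453982 to 58460139, had 34.4, 24.3 and 26.8 FPKM in si-SCR versus 71.0, 41.4 and 50.4 FPKM in si-CyCoNP. The groups were apart, and replicate 1 was the highest library in each. Its log2FC was 0.86 ± 0.138 (SE; edgeR, adjusted p = 2.16e-05), a 1.82-fold increase. PLK3, on chromosome 1 from 44800377 to 44805990, had 2.94, 3.60 and 3.52 FPKM in si-SCR against 1.63, 2.12 and 2.10 FPKM in si-CyCoNP. The groups did not overlap here either, although PLK3 had only 26 to 56 counts per library. The log2FC of PLK3 was -0.85 ± 0.240 (SE; edgeR, adjusted p = 0.00816).

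BTG2 and GADD45A varied between replicates more than between groups. BTG2, an antiproliferative gene of the BTG and TOB family, had 13.9, 12.4 and 22.5 FPKM in si-SCR versus 19.0, 15.4 and 15.7 FPKM in si-CyCoNP. The highest and the lowest value were both in si-SCR, and the log2FC was -0.04 ± 0.154 (SE; edgeR, adjusted p = 0.879), which turned to 0.03 with library totals alone and to 0.25 without si-SCR replicate 3. GADD45A, a growth arrest and DNA damage gene, had 13.4, 10.6 and 6.95 FPKM in si-SCR versus 9.20, 6.72 and 10.8 FPKM in si-CyCoNP. The groups overlapped, with a log2FC of -0.28 ± 0.215 (SE; edgeR, adjusted p = 0.377). Without si-SCR replicate 3 it was -0.53 and passed (edgeR, adjusted p = 0.0213, the lowest of the alternatives, which reached up to 0.969).

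**Figure D3:**
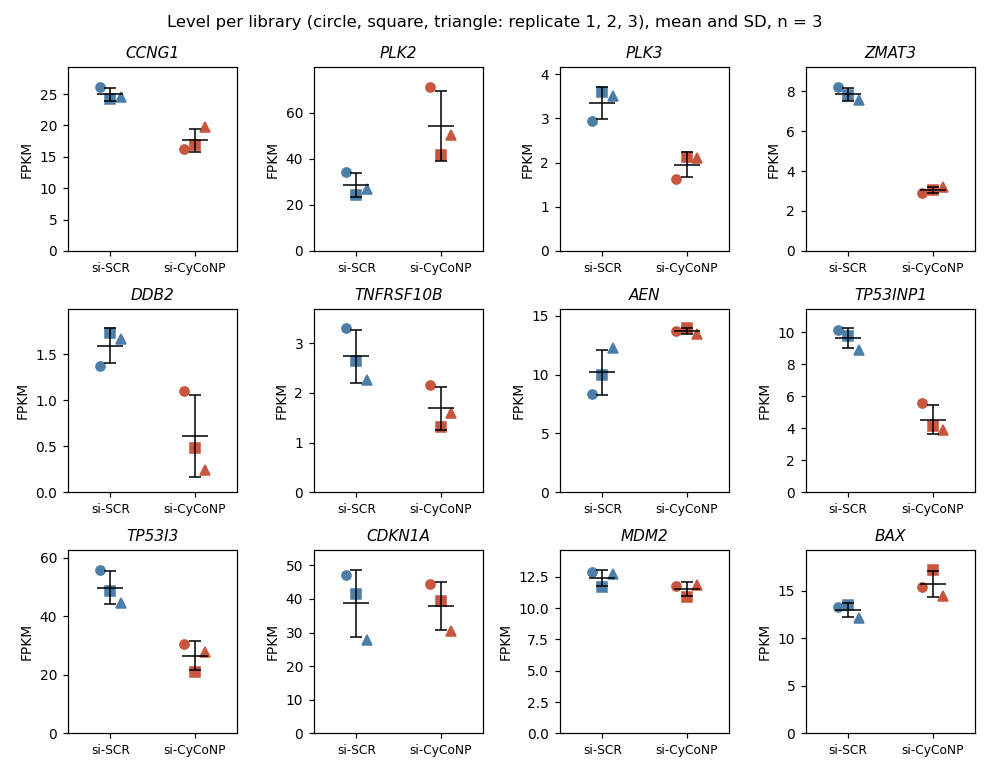
FPKM in each library (points; circle, square and triangle for replicates 1, 2 and 3) with the mean and SD (lines, n = 3) for the 9 p53 targets that passed the test and for CDKN1A, MDM2 and BAX, each panel starting at 0. In ZMAT3 the 3 si-CyCoNP libraries sit between 2.90 and 3.202 FPKM below all si-SCR libraries, whereas in CDKN1A both groups spread over the same range.

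In DNA repair and nucleotide supply 1 of 4 targets was lower. DDB2, which encodes the damage-binding subunit that starts global nucleotide excision repair, had 29, 32 and 39 counts in si-SCR versus 26, 10 and 5 counts in si-CyCoNP. In FPKM these were 1.38, 1.74 and 1.67 against 1.11, 0.481 and 0.246, so that the groups did not overlap but si-CyCoNP replicate 1 lay close to the controls. DDB2 lies on chromosome 11 from 47214465 to 47239217. Its log2FC was -1.40 ± 0.364 (SE; edgeR, adjusted p = 0.00421), and it did not pass in limma on log2(FPKM + 1), with the highest adjusted p of the alternatives (0.000154 to 0.0945). The size of the fall depended on si-CyCoNP replicate 1, without which the log2FC was -2.18 (edgeR, adjusted p = 0.000154), and it ranged from -2.18 to -0.72 over the alternatives. XPC, the partner of DDB2 in damage recognition, ranged from 2.60 to 4.27 FPKM with a log2FC of 0.18 (edgeR, adjusted p = 0.534). RRM2B, the p53-inducible subunit of ribonucleotide reductase, ranged from 3.30 to 5.10 FPKM with a log2FC of 0.15 (edgeR, adjusted p = 0.551). POLH, the translesion polymerase eta, had 2.62, 3.43 and 4.37 FPKM in si-SCR versus 2.94, 2.73 and 3.17 FPKM in si-CyCoNP. The groups overlapped and the log2FC was -0.31 (edgeR, adjusted p = 0.166), which became -0.47 without si-SCR replicate 1, where POLH passed (edgeR, adjusted p = 0.0271, the lowest of the alternatives, which reached up to 0.651).

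Among the 10 genes of death receptors and apoptosis, 7 were tested. Of these, 2 were lower (28.6%) and 1 higher (14.3%), against 14.2% of all genes in each direction. TNFRSF10B, a receptor for the death ligand TRAIL, had 3.30, 2.65 and 2.25 FPKM in si-SCR versus 2.16, 1.32 and 1.59 FPKM in si-CyCoNP. The groups did not overlap, but si-SCR replicate 3 and si-CyCoNP replicate 1 were nearly equal. Its log2FC was -0.75 ± 0.235 (SE; edgeR, adjusted p = 0.0171). This call was lost without si-SCR replicate 1, where the adjusted p in edgeR was 0.108, and without si-CyCoNP replicate 2, where it was 0.0970 (0.00157 to 0.108 over the alternatives). TP53INP1, a nuclear protein that promotes the phosphorylation of p53 and takes part in autophagy, had 10.2, 9.80 and 8.93 FPKM in si-SCR versus 5.58, 4.17 and 3.89 FPKM in si-CyCoNP. All 3 si-CyCoNP libraries were clearly lower, with a log2FC of -1.14 ± 0.137 (SE; edgeR, adjusted p = 2.94e-07), so that 45.4% of the level remained. AEN, a p53-induced nuclease of apoptotic cells, had 8.38, 9.96 and 12.2 FPKM in si-SCR versus 13.7, 13.9 and 13.4 FPKM in si-CyCoNP. The si-CyCoNP libraries were nearly equal and all above the controls, which were spread out. AEN, on chromosome 15 from 88621337 to 88632281, rose 1.28-fold, with a log2FC of 0.36 ± 0.112 (SE; edgeR, adjusted p = 0.0171). This call was lost without si-SCR replicate 1 (0.24, edgeR, adjusted p = 0.121) and without si-CyCoNP replicate 2 (0.35, edgeR, adjusted p = 0.0547), and the alternatives ranged from 0.000202 to 0.121.

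The p53 targets of the BCL2 family did not pass the test. BAX, the effector that permeabilises the outer mitochondrial membrane, had 13.3, 13.5 and 12.1 FPKM in si-SCR versus 15.4, 17.2 and 14.5 FPKM in si-CyCoNP. Although the 3 si-CyCoNP libraries lay above all controls in FPKM, the log2FC was 0.21 with a 95% confidence interval from -0.05 to 0.47 (edgeR, adjusted p = 0.243). BBC3, which encodes the BH3-only activator PUMA, had 30, 16 and 13 counts in si-SCR versus 8, 15 and 12 counts in si-CyCoNP. The groups overlapped, and the log2FC was -0.86 ± 0.415 (SE; edgeR, adjusted p = 0.128), which became -1.17 without si-SCR replicate 3, where BBC3 passed (edgeR, adjusted p = 0.0172, the lowest of the alternatives, which reached up to 0.589). PMAIP1, the BH3-only protein NOXA, ranged from 6.48 to 8.32 FPKM with a log2FC of -0.09 (edgeR, adjusted p = 0.765). TRIAP1, an inhibitor of apoptosis, ranged from 14.8 to 18.1 FPKM with a log2FC of 0.07 (edgeR, adjusted p = 0.776).

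The 3 apoptosis genes below the filter were FAS, PHLDA3 and EDA2R. The death receptor gene FAS had 5, 1 and 5 counts in si-SCR versus 8, 6 and 10 counts in si-CyCoNP. These counts did not overlap between the groups, but without the filter FAS did not pass either (edgeR, adjusted p = 0.387). PHLDA3, an inhibitor of AKT, had at most 3 counts in a library, and EDA2R, a receptor of the TNF receptor superfamily, was at 0 in every library. By counting error alone, a single library at 0 allows an expected count of up to 3, and 6 libraries at 0 together allow less.

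In metabolism, redox balance and mitochondria 5 of 6 targets were tested and TP53I3 was lower. TP53I3, known as PIG3, is a quinone oxidoreductase and lies on the minus strand of chromosome 2 from 24077433 to 24085861. Its level was 56.0, 48.9 and 44.7 FPKM in si-SCR versus 30.6, 21.2 and 28.0 FPKM in si-CyCoNP. The groups were well apart, and 51.0% of the level remained. The log2FC of TP53I3 was -0.97 ± 0.120 (SE; edgeR, adjusted p = 4.82e-07). FDXR, the mitochondrial ferredoxin reductase, had 1.75, 1.77 and 1.63 FPKM in si-SCR versus 0.926, 1.76 and 0.871 FPKM in si-CyCoNP. Thus 2 si-CyCoNP libraries were below the controls and replicate 2 was at their level, with a log2FC of -0.60 ± 0.324 (SE; edgeR, adjusted p = 0.180). SESN1, a sestrin that restrains mTORC1, ranged from 2.07 to 3.18 FPKM with a log2FC of -0.25 (edgeR, adjusted p = 0.400). TIGAR, a fructose bisphosphatase, ranged from 1.94 to 2.68 FPKM with a log2FC of -0.11 (edgeR, adjusted p = 0.671), and 18.1% of its exonic bases belong also to a second gene of the same strand. CMBL, a hydrolase, ranged from 0.906 to 1.25 FPKM with a log2FC of 0.04 ± 0.304 (SE; edgeR, adjusted p = 0.951). The sixth gene, SPATA18 of mitochondrial quality control, had 1 to 4 counts per library and was not tested.

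**Figure D4:**
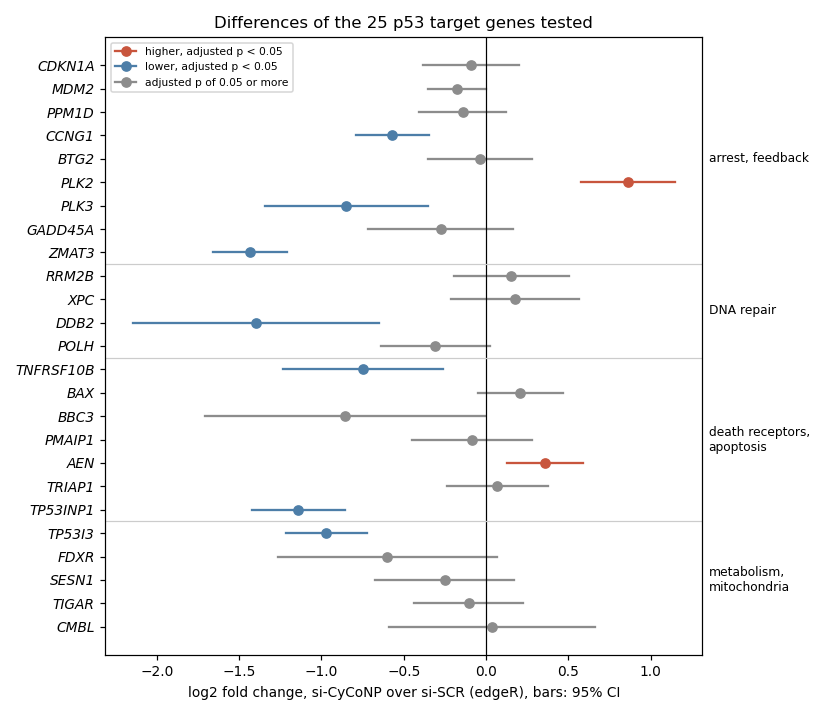
Log2 fold change of si-CyCoNP over si-SCR (x axis; points) with the 95% confidence interval (bars, edgeR) for the 25 p53 targets tested, ordered by role on the y axis, red where higher and blue where lower at an adjusted p under 0.05. The 7 genes that were lower lie to the left, PLK2 and AEN lie to the right, the interval of BBC3, which did not pass after adjustment, ends just below 0, and the intervals of low genes such as DDB2 (-2.15 to -0.65) and BBC3 are the widest.

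The p53 family and its regulators were then considered, from a list of 30 genes of which 27 were tested. MDM4, the MDM2 relative that masks the p53 activation domain, had 13.1 ± 0.408 and 12.8 ± 0.633 FPKM (SD, n = 3), with a log2FC of -0.10 (edgeR, adjusted p = 0.408). Of the 27 genes 4 were higher and 4 lower, 29.6% in all, which is close to the 28.4% of all genes tested. Each direction held 14.8%, against 14.2% of all genes, and the median of the 27 was 0.07. The 5S particle proteins RPL11 and RPL5, which restrain MDM2 together, moved in opposite directions, with 0.65 for RPL11 (edgeR, adjusted p = 5.79e-06) and -0.34 for RPL5 (edgeR, adjusted p = 0.00135). The kinase gene PRKDC with 0.36 and the deubiquitinase gene USP7 with 0.29 were higher, and the p53 cofactor gene PPP1R13B with -0.70 and the deacetylase gene SIRT1 with -0.40 were lower on the log2 scale (edgeR, adjusted p from 1.64e-04 to 0.0151). SIRT1 lost its call without si-SCR replicate 1 (edgeR, adjusted p = 0.0502), without si-CyCoNP replicate 3 (edgeR, adjusted p = 0.108) and in limma, over a range of 0.00272 to 0.108. PPP1R13B lost its call in limma only, with an adjusted p of 0.0847 on log2(FPKM + 1) and 7.64e-24 to 0.0847 over the alternatives. TP53BP1 with 0.24 and HEXIM1 with -0.39, named after their values were seen, completed the 8. The p53 relatives TP63, at 0 in every library, and TP73, with at most 26 counts, were not tested.

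A further 45 p53 targets from general knowledge were looked at, of which 25 were tested. Of these 25, 6 were lower (24.0%) and 2 were higher (8%), against 14.2% of all genes in each direction. Their median log2FC was -0.03. PGF, a growth factor of the VEGF family, had 4.22 ± 0.844 FPKM in si-SCR and 1.71 ± 0.150 FPKM after knockdown (SD, n = 3), and a log2FC of -1.36 (edgeR, adjusted p = 4.52e-06). ACER2, an alkaline ceramidase, fell from 3.72 ± 1.94 to 1.48 ± 0.265 FPKM with -1.41 (edgeR, adjusted p = 0.00123), and ATF3, a stress-induced transcription factor gene, had -0.69 (edgeR, adjusted p = 0.00169). EI24, an endoplasmic reticulum protein gene, was higher with 0.34 (edgeR, adjusted p = 0.00670), and so was FBXW7, a ubiquitin ligase subunit gene, with 0.33 (edgeR, adjusted p = 0.0339). FBXW7 lost its call in DESeq2 (adjusted p = 0.0911) and when any library but si-SCR replicate 3 was left out, so that its adjusted p reached from 0.00885 to 0.174. GDF15, a stress cytokine gene named after its values were seen, had the lowest value of this list with -1.57 (edgeR, adjusted p = 0.00314). It reached the filter through si-SCR only and had 6 to 26 counts per library, so that its size is uncertain.

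Genes that p21 is known to repress through the DREAM complex were compared next, because CDKN1A itself did not pass. Of 25 such cell cycle genes, all tested, 3 were higher (12.0%) and 2 were lower (8%), against 14.2% of all genes in each direction. The median was 0.10. The apoptosis inhibitor gene BIRC5 had a log2FC of 0.57 (edgeR, adjusted p = 1.37e-04), the transcription factor gene E2F1 one of 0.39 (edgeR, adjusted p = 0.00625) and the spindle checkpoint gene BUB1B one of 0.31 (edgeR, adjusted p = 0.0149). MYBL2 with -0.29 (edgeR, adjusted p = 0.0109) and CDC25C with -0.68 (edgeR, adjusted p = 0.0430) were lower. CDC25C lost its call in 8 of 15 alternatives, with an adjusted p of 0.108 in DESeq2 and 0.0165 to 0.191 over the alternatives. BUB1B lost its call without si-SCR replicate 2 (edgeR, adjusted p = 0.0579) and without si-CyCoNP replicate 3 (edgeR, adjusted p = 0.105, the highest of a range from 0.00226). MYBL2 lost its call with library totals alone (edgeR, adjusted p = 0.0576) and in limma, over a range of 0.00128 to 0.105. Without si-SCR replicate 3, 11 of the 25 genes passed in place of 5. In that fit the calls over all 14107 genes tested rose too, to 2174 higher and 2223 lower.

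BTG2, PLK2, PLK3 and GADD45A are also known to rise with immediate early genes, and 18 of these were therefore set beside them. Of the 14 tested, 4 were higher and 4 were lower (57.1% in all, against 28.4% of all genes tested). The median log2FC of the 14 was -0.16. EGR1 with 0.60 (edgeR, adjusted p = 3.05e-06), IER2 with 0.41 (edgeR, adjusted p = 6.09e-04) and EGR3 with 1.01 (edgeR, adjusted p = 0.00212) were higher. JUN with -1.10 (edgeR, adjusted p = 1.63e-08), KLF6 with -0.54 (edgeR, adjusted p = 6.80e-05) and KLF2 with -0.97 (edgeR, adjusted p = 1.75e-04) were lower. ARC with -0.62 and FOSL1, which had 1, 0 and 3 counts in si-SCR versus 5, 14 and 12 counts in si-CyCoNP, completed the 8 and were named after their values were seen. FOSL1 reached the filter through si-CyCoNP only, and its fitted log2FC depends on the model at such counts and is no measured size. PLK2 was higher and PLK3 lower beside immediate early genes that went both ways, and their part in the values of PLK2 and PLK3 was not tested.

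**Figure D5:**
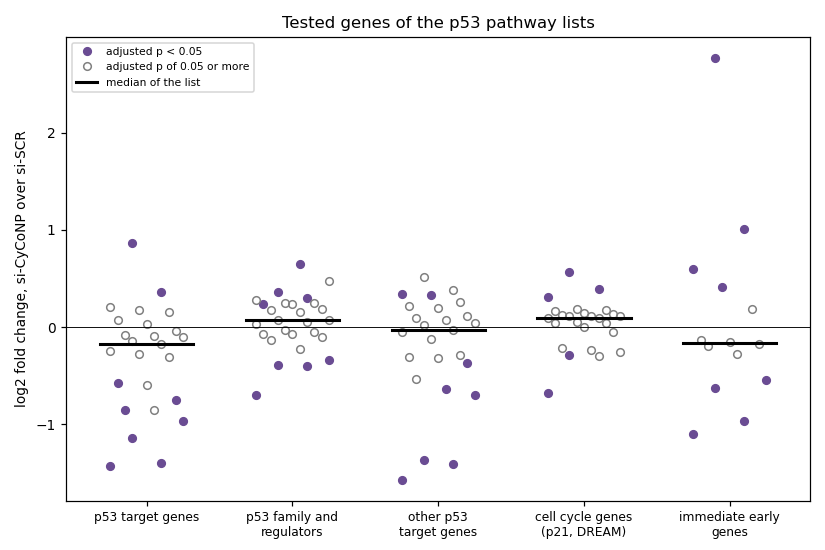
Log2 fold change of si-CyCoNP over si-SCR (y axis) for the tested genes of the 29 p53 targets, the p53 family and regulators, 45 other p53 targets, cell cycle genes repressed through p21 and DREAM, and immediate early genes (x axis), with filled points at an adjusted p under 0.05 and a bar at the median of each list. The medians lie between -0.18 for the 29 targets and 0.10 for the cell cycle genes, each list holds genes that passed in both directions, and the highest point is FOSL1.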

How the data were processed

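Raw counts per gene and FPKM were deposited. The authors prepared stranded total RNA libraries after ribosomal RNA depletion, trimmed paired-end reads (Trimmomatic 0.39, Cutadapt 3.2), removed ribosomal reads (Bowtie2 2.4.2) and counted uniquely mapping fragments per Ensembl gene with STAR 2.7.7a on GRCh38, so genes with near-identical copies are undercounted. The FPKM were scaled by the authors to gene length and library total, and the tool for this is not given in the sources used here. Groups were taken from the sample titles. The 13966 genes whose FPKM averaged 1 or more in si-SCR or in si-CyCoNP were tested on their counts by edgeR 4.0.16 (R 4.3.3) with quasi-likelihood F tests, TMM scaling, no covariates and Benjamini-Hochberg adjustment. The 15 alternatives were DESeq2 1.42.0, limma 3.58.1 on log2 FPKM, other scalings and filters, a replicate block and leaving out each library. The study names DESeq2, in another version, in its methods and an edgeR likelihood ratio test in a supplementary legend. All 29 targets were named, with MDM4 and LINC02381 and, from each other list, up to 3 genes in each direction with the smallest adjusted p. The values of some list genes are not reported here, and they enter only list summaries. The members and lists were chosen with earlier results of these data known. The scripts were tested on simulated data. Symbols were found for 60357 of 60676 identifiers. Duplicate reads were not collapsed, so errors were taken from the spread of replicates.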

Additional observations from a re-analysis of the deposited data

How the results depend on the processing

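Of the 29 targets, ZMAT3, TP53INP1, TP53I3, CCNG1, PLK2 and PLK3 kept their direction and their call in all 15 alternatives, with log2 fold changes from -1.48 to -1.13, -1.32 to -0.95, -1.09 to -0.83, -0.67 to -0.48, 0.62 to 1.04 and -0.92 to -0.56. DDB2, TNFRSF10B and AEN lost their call in limma on log2 FPKM, as did PPP1R13B, SIRT1, FBXW7, ACER2, MYBL2, CDC25C and KLF2 among the other genes tracked, and there 1 target was higher with 1 added to the FPKM and 1 with 0.1 added. When libraries were left out in turn, 1 to 2 targets were higher and 6 to 10 lower, and their median log2 fold change lay between -0.26 and -0.12. The count of 10 was reached without si-SCR replicate 3, through CDKN1A, GADD45A and BBC3, and that of 1 without si-SCR replicate 1 or si-CyCoNP replicate 2. The median of the targets was -0.11 with library totals alone, -0.12 with no filter, -0.10 in limma with 1 added to the FPKM and -0.11 with 0.1 added. Library totals moved the median of all genes by 0.067. With a log2 fold change beyond 1 required as well, 0 targets were higher and 3 lower, as were 0 regulators, 3 other p53 targets, 0 cell cycle genes and 3 immediate early genes in either direction, and 319 of all genes were higher and 416 lower (edgeR). In limma with 1 or 0.1 added to the FPKM, 1118 and 1113 of all genes were lower, 5 and 5 other p53 targets, 3 and 3 cell cycle genes and 5 and 5 immediate early genes passed.

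Without 1 library, 1611 to 2174 of all genes were higher and 1617 to 2223 lower, and 6 to 12 regulators, 6 to 7 other p53 targets, 4 to 11 cell cycle genes and 7 to 9 immediate early genes passed. Among targets that did not pass, the sign turned for 5 genes. CDKN1A ranged from -0.306 (without si-SCR replicate 3) to 0.093 (without si-SCR replicate 1), TIGAR from -0.198 to 0.032 (without si-CyCoNP replicate 1), TRIAP1 from -0.018 (without si-SCR replicate 3) to 0.136, and CMBL from -0.048 (without si-SCR replicate 3) to 0.191. BTG2 turned to 0.025 with library totals alone and to 0.071 and 0.077 in limma with 1 and 0.1 added, and ranged from -0.186 to 0.253 (without si-SCR replicate 3) when libraries were left out. The cause was not tested.

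Replicate numbers were shared by the groups. Deviations of libraries with the same number correlated across genes with 0.091, 0.073 and 0.108, against -0.067 to -0.023 for different numbers, so that every library correlated best with its own number, as a hint from the data and not from the design. With the replicate number as a block, 9 cell cycle genes passed in place of 5 and 12 regulators in place of 8. The calls over all genes rose as well, to 2403 higher and 2368 lower in place of 1982 and 1990. The targets gave again 2 higher and 7 lower. Depth limited the low genes, since DDB2, BBC3, FDXR and CMBL had 39 counts or fewer in each library.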
